A study of Homo sapiens with 18 samples.

Results

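A total of 112 genes, of 22034 in the table, were higher after knockdown of ERG and at each of 3 times after the compound PBITE-1 in the prostate cancer cell line VCaP. They were chosen on measured values. For each gene, counts were divided by the library total and scaled to CPM, the usual unit for depth-scaled counts, averaged over the 3 samples of a group, and 0.5 CPM was added before ratios were taken. A gene was a member where its mean was at least 3 CPM under doxycycline (Dox) and at 12 h of PBITE-1, and where its ratio to its own control was at least 2 in each of 4 comparisons, namely Dox and PBITE-1 at 4, 8, and 12 h. The 4 ratios are therefore given as a description, and no test of them is reported. Of the 22034 genes, 10924 passed both CPM floors. Among these, the ratio was at least 2 for 1120 genes under Dox, and for 433, 1067, and 1425 genes at 4, 8, and 12 h. The ratio was at least 2 at all PBITE-1 times for 397 genes, of which 112 also had a ratio of at least 2 under Dox. The 3 PBITE-1 comparisons share their DMSO samples, so that a low DMSO value raises all 3 ratios at once. With a mean of at least 3 CPM in both controls, 20 genes had a ratio of 0.5 or less in all 4 comparisons. That count and the 112 are not directly comparable, since their floors lie in different groups. On library totals the median log2 fold change of all genes tested was also 0.28 under Dox.

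The samples came from 6 groups of 3 replicates. The study calls the PBITE-1 replicates biological, while the labels give replicate numbers only. VCaP is a prostate cancer line that carries the TMPRSS2:ERG fusion, through which an androgen-driven promoter expresses the transcription factor ERG. VCaP-shERG cells, which hold a Dox-inducible short hairpin RNA against ERG, received DMSO (shERG-DMSO) or Dox at 1 µg/mL for a time that the labels do not give. Parental VCaP cells received DMSO or 50 µM PBITE-1, a compound that the study describes as binding the PNT domain of ERG, for 4, 8, or 12 h. The time at which the DMSO cells were collected is not given, and no cells that received Dox without the hairpin were analysed here. Line, agent, and time of treatment therefore cannot be told apart between the Dox and the PBITE-1 comparison.

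As background, an ETS factor such as ERG binds short GGAA-centred sites and can raise or lower the genes beside them, so that loss of ERG can release genes it kept low. Cells under stress also share a general program. Kinases that sense lack of amino acids, misfolded protein, or other stress slow translation and favour the factor ATF4, whose targets include enzymes of amino acid synthesis and brakes on growth. Arrest of the cell cycle, autophagy, and lysosome genes are other common parts of such a response.

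The library totals ranged from 11308600 to 17483423 counts, at which 3 counts of a gene correspond to 0.172 to 0.265 CPM. ERG itself ranged from 397 to 419 CPM in shERG-DMSO and from 174 to 183 CPM in Dox. Its range was 287 to 304 CPM in DMSO, and 177 to 183, 89.5 to 94.7, and 88.4 to 103 CPM at 4, 8, and 12 h of PBITE-1. The luminal marker list (10 of 10 genes detected, among them KLK3, which encodes PSA) summed in the middle sample to 9770 CPM in shERG-DMSO, 7444 in Dox, 8023 in DMSO, and 7404, 5343, and 4166 CPM at the 3 times. The sum of 6 fibroblast markers ranged from 1.30 to 2.13 CPM in shERG-DMSO, 8.33 to 9.70 in Dox, 2.14 to 3.03 in DMSO, and 3.44 to 4.18, 5.58 to 8.49, and 5.33 to 9.34 CPM at 4, 8, and 12 h. Only COL1A1 and LUM carried it, since COL1A2, COL3A1, DCN, and PDGFRA had at most 3 counts in every sample. Its part in the levels of the 112 genes was not tested. The sum of 4 basal markers ranged from 1.24 to 2.04 CPM in shERG-DMSO, 1.74 to 2.55 in Dox, 4.90 to 7.05 in DMSO, and 7.26 to 10.9, 11.4 to 16.6, and 7.84 to 8.13 CPM at the 3 times. Within it, the mean of NGFR was 0.158 CPM in shERG-DMSO, 1.01 in Dox, 0.461 in DMSO, and 4.89, 9.38, and 5.94 CPM at the 3 times, while that of KRT14 was 5.07 CPM in DMSO and 3.78, 3.07, and 0.941 CPM at the 3 times. Its part was likewise not tested. The endothelial and leukocyte lists stayed at or below 3.52 CPM in sum in every sample, and mitochondrially encoded genes held 8.06 to 10.1% of the counts.

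The scale matters for Dox. With library size as the only scaling, the median log2 fold change of the 14164 genes that passed the filter on low counts was 0.28 for Dox against shERG-DMSO and at most 0.09 in size in the PBITE-1 comparisons with DMSO. On the TMM scale, which sets the bulk of genes to no change, 31 of the 112 genes had a Dox ratio below 2 and none fell below 2 at 4, 8, or 12 h. Among those 31 were ASS1 (1.75), HBP1 (1.94), NKD1 (1.86), RORA (1.97), MAP1A (1.75), NPTXR (1.69), and H2AC6 (1.73), whose Dox values are given below on library totals. The rule applied on the TMM scale gave 85 genes, of which 78 were among the 112. WNT4, with a Dox ratio of 4.41 on that scale, missed it on the CPM floor. All 112 genes passed the filter on low counts, as the floor of the rule requires a level in 2 treated groups, and all 112 are annotated as protein coding.

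In the 112 genes together, the summed level was 653 to 673 CPM in shERG-DMSO and 1948 to 1973 CPM in Dox. In parental cells it was 734 to 742 CPM in DMSO, 3342 to 3556 CPM at 4 h, 5244 to 5460 CPM after 8 h, and 4811 to 5457 CPM at 12 h. The 2 control groups differed by less than any treated group did from its control, and the sum was larger in every PBITE-1 sample than in every Dox sample. The median ratio of the 112 genes was 2.75 under Dox and 2.95, 5.59, and 5.22 at the 3 PBITE-1 times. The range over the genes was 2.01 to 15.6 under Dox, and with PBITE-1 it was 2.01 to 45.3, 2.33 to 101, and 2.01 to 83.7 in the order of the times. Over all genes past the CPM floors the medians were 1.16, 0.963, 0.935, and 0.977. The lowest of a gene's 4 ratios was that of Dox in 55 genes, that of 4 h in 49, that of 8 h in 2, and that of 12 h in 6. The 12 h ratio was above the Dox ratio in 94 of 112 genes, and the 4 h ratio in 59.

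**Figure D1:**
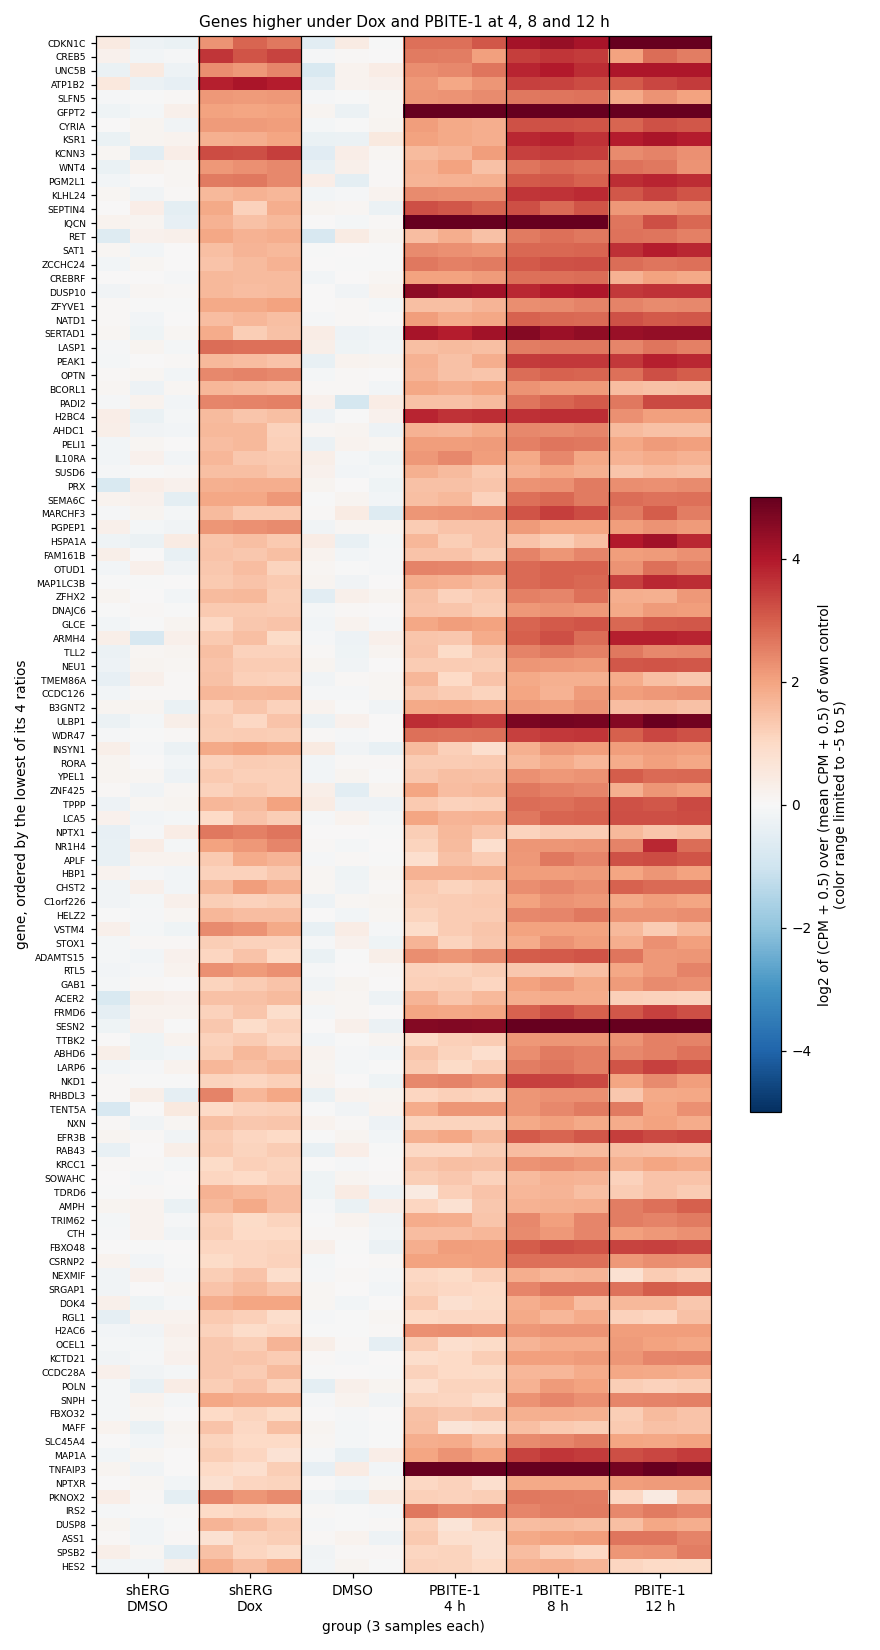
Each row is 1 gene among the 112, ordered from the highest to the lowest minimum of its 4 ratios, and each column is 1 of 18 samples in 6 groups. Color gives the log2 of (CPM + 0.5) over the mean (CPM + 0.5) of the own control group, shERG-DMSO or DMSO, limited to -5 to 5. Treated samples are red in all rows, palest under Dox and at 4 h, where the lowest ratio of 55 and 49 genes lay.

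With limma-voom (adjusted p under 0.05 over the 14164 genes tested and an absolute log2 fold change above 1), 92 of the 112 genes were called higher under Dox, against 12.0% of all genes tested. The number was 112 of 112 at 4 h (7.28% of all genes), at 8 h (14.9%), and at 12 h (17.1%). These counts follow from the rule and are not a result. In each of the 4 comparisons the 3 treated samples lay above the 3 control samples for 112 of 112 genes, which the rule also favours. The same held for 51.8% of all genes tested under Dox, and for 25.0%, 33.5%, and 37.6% at 4, 8, and 12 h. The lowest ratio was at least 3 in 19 genes and under 2.5 in 71, so that many of the genes lie close to the threshold. Just inside it were HES2, a transcriptional repressor of the HES family, with a minimum ratio of 2.01 at 12 h, SPSB2, a substrate adaptor of an E3 ubiquitin ligase, with 2.01 at 4 h, and ASS1, an enzyme of arginine synthesis, with 2.01 at 4 h. Just outside were SUFU, an inhibitor of Hedgehog signalling, with 1.99 under Dox, and TUBA1A, an alpha tubulin, with 1.98 at 4 h.

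Promoter sequences show what the genes carry upstream of the start site. RefSeq windows (GRCh38.p14) of 300 bases, from 250 before to 50 after an annotated start, were found for 94 of the 112 genes. A few are printed because the genes stand for the groups described below, namely stress response (KLHL24, CREBRF), MAP kinase feedback and leucine zipper factors (DUSP8, MAFF), the shared histone promoter (H2AC6), and the gene with the second highest minimum ratio (CREB5). All are written in the direction of the gene, 5′ to 3′. Capitals mark 4 motifs, each searched on both strands. The first is the AP-1 site, with the letters TGAGTCA. The next is the E-box, which reads CACGTG in either direction. The cAMP response element (CRE) is marked by its palindrome TGACGTCA. The TATA box is marked where the window holds TATAAA. The windows lie at chr3:183635373-183635672 (plus strand, KLHL24), chr5:173056102-173056401 (plus, CREBRF), chr11:1572222-1572521 (minus, DUSP8), chr22:38201744-38202043 (plus, MAFF), chr6:26123922-26124221 (plus, H2AC6), and chr7:28412268-28412567 (plus, CREB5, a start inside the longer gene model).
KLHL24: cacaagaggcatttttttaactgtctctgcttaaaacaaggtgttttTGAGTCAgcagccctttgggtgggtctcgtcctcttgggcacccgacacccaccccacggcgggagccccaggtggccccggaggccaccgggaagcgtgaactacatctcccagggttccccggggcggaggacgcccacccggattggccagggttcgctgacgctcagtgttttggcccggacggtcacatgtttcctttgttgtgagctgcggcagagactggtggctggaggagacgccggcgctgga
CREBRF: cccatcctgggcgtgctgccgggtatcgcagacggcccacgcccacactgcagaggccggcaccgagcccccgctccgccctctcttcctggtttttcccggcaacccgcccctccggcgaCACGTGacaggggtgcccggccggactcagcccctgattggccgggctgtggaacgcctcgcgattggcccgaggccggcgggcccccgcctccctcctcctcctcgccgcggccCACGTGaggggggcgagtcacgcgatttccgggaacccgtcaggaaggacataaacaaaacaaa
DUSP8: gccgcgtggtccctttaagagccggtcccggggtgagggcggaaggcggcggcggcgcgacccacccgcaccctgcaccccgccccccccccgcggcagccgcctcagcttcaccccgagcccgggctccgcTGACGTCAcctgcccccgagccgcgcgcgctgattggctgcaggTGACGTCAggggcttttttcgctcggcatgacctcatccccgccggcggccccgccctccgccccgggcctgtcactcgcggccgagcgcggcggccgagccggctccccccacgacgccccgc
MAFF: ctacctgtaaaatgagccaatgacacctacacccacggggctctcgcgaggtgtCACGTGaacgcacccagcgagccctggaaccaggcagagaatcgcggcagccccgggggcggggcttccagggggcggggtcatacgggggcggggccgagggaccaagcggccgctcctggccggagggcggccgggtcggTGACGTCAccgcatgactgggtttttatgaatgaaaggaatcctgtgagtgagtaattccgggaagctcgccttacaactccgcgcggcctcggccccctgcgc
H2AC6: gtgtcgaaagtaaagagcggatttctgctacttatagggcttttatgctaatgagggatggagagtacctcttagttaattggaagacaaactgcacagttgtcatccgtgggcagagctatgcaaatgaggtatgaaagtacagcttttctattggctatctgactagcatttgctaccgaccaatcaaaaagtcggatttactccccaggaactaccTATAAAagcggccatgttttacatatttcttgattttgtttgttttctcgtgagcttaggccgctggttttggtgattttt
CREB5: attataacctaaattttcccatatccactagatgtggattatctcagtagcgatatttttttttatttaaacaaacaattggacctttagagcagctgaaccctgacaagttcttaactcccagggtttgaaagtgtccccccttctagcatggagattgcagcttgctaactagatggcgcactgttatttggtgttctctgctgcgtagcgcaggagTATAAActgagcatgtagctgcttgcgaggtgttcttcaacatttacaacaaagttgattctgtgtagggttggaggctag

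The most common of the motifs searched was GGGCGG (GC box), in 74 of 94 windows (78.7%), against 44.6% of all 27305 RefSeq windows and 69.9% of the 10947 windows of tested genes. The ETS motif CCGGAAGT was in 2 of 94 (2.13%), those of SOWAHC and TDRD6, against 4.44% of all windows and 8.40% of those of tested genes. E-boxes were in 8 (8.51%, against 7.43% and 9.86%), AP-1 sites in 4 (4.26%, against 4.92% and 2.90%), and CREs in 3 (3.19%, against 1.98% and 3.25%). TATA boxes were in 7 (7.45%, against 12.0% and 5.98%). The windows of H2AC6 and H2BC4 overlap, so that the same TATAAA is counted for both. TGATGNAA, a form of the element bound by C/EBP-ATF heterodimers, was in 0 of 94 windows, against 3.67% of all and 1.64% of those of tested genes. TGACG, which lies inside the CRE, was in 29 windows (30.9%, against 25.01% and 33.8%). The antioxidant element TGACNNNGC was in 14 (14.9%, against 13.6% and 14.9%), the metal response element TGCNCNC in 64 (68.1%, against 55.2% and 63.5%), and the xenobiotic element GCGTG in 48 (51.1%, against 36.3% and 50.3%). A match describes letters in this window and says nothing of binding.

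By gene model (GENCODE 29 on GRCh38), the 112 genes had a median length of 37475 bases, 7 exons, and a GC content of 51.8%, against 32628 bases, 8 exons, and 48.4% over all genes tested with a model. The median transcript length was 4599 against 3629 bases, and 5 of 112 genes (4.46%) had a single exon, against 5.53%. Among the members, 5 pairs of genes lay within 100000 bases of each other. APLF and FBXO48 start 303 bases apart on opposite strands of chromosome 2, and H2BC4 and H2AC6 start 219 bases apart on opposite strands of chromosome 6, so that the H2AC6 window above also holds the H2BC4 start. The other pairs were SERTAD1 and PRX (gap of 8226 bases), HSPA1A and NEU1 (39713), and IQCN and PGPEP1 (66078). Reads of 21 members overlapped on the opposite strand by another gene of the table cannot be told apart from that gene's reads if strand was not used, which the sources do not state. Among them, SPSB2 overlaps TPI1 (500 CPM in DMSO), HBP1 overlaps COG5 (63.3 CPM), and ARMH4 overlaps PSMA3 (86.9 CPM), each above the member itself. Overlapping genes changed in either direction. LRRC23, which also overlaps SPSB2, was at 4.44 CPM in DMSO, 9.56 at 12 h, 6.31 in shERG-DMSO, and 12.7 in Dox. In the same order, USP35, which overlaps KCTD21, was at 4.69, 9.46, 7.22, and 13.4 CPM. TPI1 was at 500, 408, 659, and 334 CPM, and PSMA3 at 86.9, 70.0, 97.0, and 68.9 CPM.

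Genes among the 10 with the highest minimum ratio are given first, with their levels in every sample or their range. CDKN1C (ENSG00000129757, chr11:2883213-2885773) encodes p57, an inhibitor of cyclin-dependent kinases. It was at 0.275, 0.309, and 0.832 CPM in shERG-DMSO and at 4.12, 5.61, and 6.72 CPM in Dox. In parental cells it was at 0.0674, 0.292, and 0.566 CPM in DMSO, at 4.91, 4.92, and 6.38 CPM at 4 h, at 13.7, 14.01, and 16.2 CPM at 8 h, and at 53.8, 65.1, and 72.9 CPM at 12 h. No 2 of the 4 parental groups overlapped, and the Dox samples overlapped those of 4 h. The ratios were 6.16 under Dox and 7.30, 18.7, and 79.7 at the 3 times.

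CREB5 (ENSG00000146592, chr7:28299321-28825894), a leucine zipper transcription factor that binds CREs, differed from it at 12 h. Its levels were 0.370, 0.412, and 0.605 CPM in shERG-DMSO and 8.08, 9.52, and 10.9 CPM in Dox. They were 0.944, 1.05, and 1.07 CPM in DMSO, 5.87, 8.50, and 8.60 at 4 h, 16.4, 16.8, and 17.4 at 8 h, and 5.69, 8.46, and 9.93 CPM at 12 h. The 8 h samples were above all others, while 4 and 12 h overlapped. KCNN3 (ENSG00000143603, chr1:154697455-154870280), a calcium-activated potassium channel, was likewise highest at 8 h among the PBITE-1 times. It was at 0.123, 0.454, and 0.618 CPM in shERG-DMSO, at 8.00, 8.09, and 9.43 in Dox, at 0, 0.292, and 0.440 in DMSO, at 1.72, 1.91, and 2.64 at 4 h, at 7.44, 7.60, and 7.86 at 8 h, and at 3.13, 3.37, and 3.66 CPM at 12 h. For both genes the Dox ratio (10.4 and 10.0) was close to the 8 h ratio (11.4 and 10.9), with 0.5 CPM added to low control levels. The fitted log2 fold change under Dox and at 8 h was 4.04 (SE 0.38) and 4.07 (SE 0.31) for CREB5. For KCNN3 it was 4.32 (SE 0.44) and 5.49 (SE 0.57).

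UNC5B (ENSG00000107731, chr10:71212570-71302864) encodes a netrin receptor. Its levels were 0.227, 0.275, and 0.741 CPM in shERG-DMSO and 3.57, 4.04, and 4.50 in Dox, then 0.405, 1.20, and 1.46 in DMSO, 7.05, 7.62, and 9.31 at 4 h, 19.3, 20.7, and 23.2 at 8 h, and 24.2, 24.5, and 24.8 CPM at 12 h. ATP1B2 (ENSG00000129244, chr17:7646627-7657768), a beta subunit of the sodium-potassium pump, had the highest Dox ratio of the 112 genes, 15.6. It was at 0.0687, 0.123, and 0.605 CPM in shERG-DMSO and at 10.9, 11.1, and 12.4 in Dox, against 0.0674, 0.378, and 0.408 in DMSO, 2.49, 3.03, and 3.08 at 4 h, 7.07, 7.59, and 7.78 at 8 h, and 6.13, 7.38, and 8.26 CPM at 12 h. All Dox samples of ATP1B2 were above all PBITE-1 samples, the reverse of UNC5B at 4 to 12 h.

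SLFN5 (ENSG00000166750, chr17:35243036-35273655), a Schlafen family protein induced by interferon, had a moderate level already in the controls. It was at 23.7, 23.9, and 25.6 CPM in shERG-DMSO and 107, 111, and 112 in Dox, and at 37.5, 38.8, and 41.5 in DMSO, 183, 189, and 202 at 4 h, 248, 251, and 261 at 8 h, and 146, 160, and 186 CPM at 12 h. Its ratios were 4.45 under Dox and 4.83, 6.39, and 4.14 at the 3 times. GFPT2 (ENSG00000131459, chr5:180300690-180353387), which makes glucosamine 6-phosphate at the entry to the hexosamine pathway, had far larger ratios with PBITE-1 than with Dox. It was at 2.496, 2.78, and 3.64 CPM in shERG-DMSO and 13.0, 13.4, and 13.6 in Dox, against 2.27, 3.15, and 3.24 in DMSO, 142, 148, and 168 at 4 h, 336, 339, and 349 at 8 h, and 253, 285, and 311 CPM at 12 h. Its ratio was 3.99 under Dox and 45.3, 101, and 83.7 at the PBITE-1 times, the last 3 each the highest such ratio of the 112 genes at its time. The added 0.5 CPM holds down the ratio of genes with a control near 0. At 12 h the fitted log2 fold change was 6.66 (SE 0.22) for GFPT2 and 7.89 (SE 0.56) for CDKN1C.

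CYRIA (ENSG00000197872), which binds the GTPase RAC1 and restrains actin assembly, ranged from 3.85 to 4.999 CPM in shERG-DMSO, 20.7 to 21.2 in Dox, 4.11 to 4.90 in DMSO, 17.0 to 20.7 at 4 h, 43.1 to 44.4 after 8 h, and 37.2 to 44.7 CPM at 12 h. For this gene, Dox and 4 h overlapped, as did 8 and 12 h. KSR1 (ENSG00000141068), a scaffold of the RAF-MEK-ERK cascade, ranged from 1.29 to 2.06 CPM in shERG-DMSO, 7.21 to 8.41 in Dox, 0.472 to 1.23 in DMSO, 3.89 to 4.51 at 4 h, 14.6 to 17.1 after 8 h, and 18.03 to 20.4 CPM at 12 h.

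**Figure D2:**
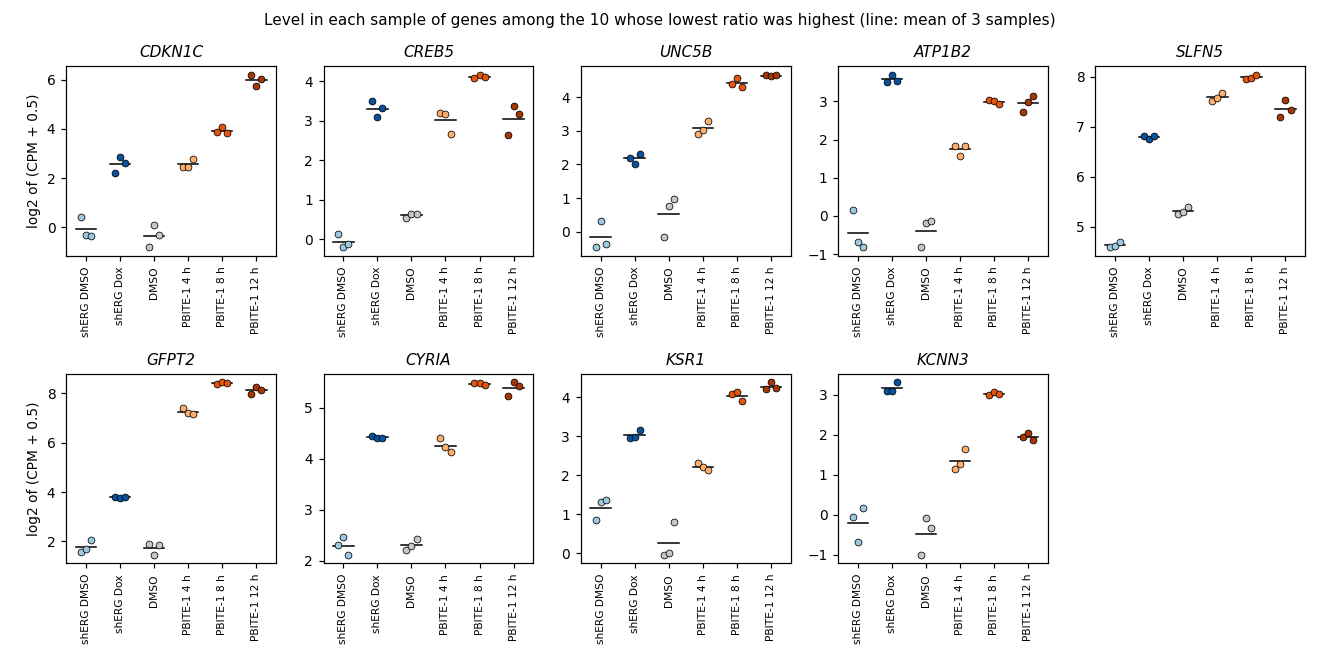
Each panel gives log2 of (CPM + 0.5) in 18 samples for 1 gene among the 10 with the highest minimum ratio, with a line at the mean of the 3 samples of a group. In every panel both treated sets lie above their controls, with CREB5 and KCNN3 highest at 8 h and CDKN1C highest at 12 h among the PBITE-1 times.

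In CPM, which is not a level per length, the highest means at 12 h belonged to SAT1, IRS2, GFPT2, KLHL24, and SLFN5. SAT1 (ENSG00000130066, chrX:23783173-23786226), the rate-limiting enzyme of polyamine breakdown, was at 17.0, 19.2, and 20.4 CPM in shERG-DMSO, at 54.4, 58.9, and 62.7 in Dox, at 34.2, 34.3, and 34.5 in DMSO, at 160, 169, and 178 at 4 h, at 256, 257, and 259 at 8 h, and at 441, 476, and 527 CPM at 12 h. Its samples were separate between all groups. IRS2 (ENSG00000185950, chr13:109752698-109786568), which couples the insulin and IGF receptors to PI3 kinase, was at 51.2, 52.1, and 56.0 CPM in shERG-DMSO, at 104, 106, and 112 in Dox, and at 66.5, 67.2, and 71.9 in DMSO. It was at 364, 386, and 431 CPM at 4 h, at 378, 409, and 418 at 8 h, and at 367, 378, and 412 at 12 h, so that the 3 times overlapped. The Dox ratio of IRS2 was 2.01, and its log2 fold change of 0.76 on the TMM scale was not past the threshold of 1.

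Genes of the stress response and of amino acid or sugar metabolism made up 9 members. The role groups here and below were made after the members were known and are used for description. They had median ratios of 3.01 under Dox and 4.14, 7.40, and 13.4 at 4, 8, and 12 h. Of these, 4 belong to a list of 26 integrated stress response genes. KLHL24 (ENSG00000114796), an adaptor of a cullin ubiquitin ligase, ranged from 15.8 to 19.2 CPM in shERG-DMSO, 56.1 to 60.8 in Dox, 18.5 to 22.7 in DMSO, 103 to 106 at 4 h, 247 to 273 after 8 h, and 177 to 217 CPM at 12 h. CREBRF (ENSG00000164463), a regulator of the CREB3 factors, ranged from 7.90 to 8.39, 25.3 to 26.2, 6.88 to 8.05, 31.7 to 34.9, 53.1 to 55.5, and 26.1 to 31.7 CPM in the same order, with no overlap of 8 h and 12 h. SESN2 (ENSG00000130766), a leucine sensor that restrains mTORC1, was at 2.65, 3.09, and 3.83 CPM in shERG-DMSO, at 6.55, 7.73, and 8.80 in Dox, and at 2.04, 2.70, and 3.21 in DMSO. With PBITE-1 it was at 74.5, 74.6, and 77.9 CPM after 4 h, at 133, 138, and 144 after 8 h, and at 118, 134, and 163 after 12 h. CTH (ENSG00000116761), which makes cysteine from cystathionine, had ratios of 2.12 under Dox and 3.02, 5.04, and 4.49 at the 3 times.

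The whole list was counted in each comparison. Of its 25 genes that were tested, 20, 22, and 22 were called higher at 4, 8, and 12 h and 2, 3, and 2 lower. Under Dox, 2 were called higher and 2 lower. The shares of all genes called higher, against which this and the other lists are read, were 7.28%, 14.9%, and 17.1% at the 3 times and 12.0% under Dox. Its median log2 fold change was -0.35 under Dox (0.02 over all genes tested) and 2.28, 3.62, and 3.28 at the 3 times (-0.01, -0.02, and -0.01 over all genes tested). ATF3, an early stress factor, had ratios of 241, 218, and 311 with PBITE-1 and 0.983 under Dox, and ASNS, asparagine synthetase, had ratios of 5.35, 11.7, and 13.8 with PBITE-1 and 0.822 under Dox. The 4 members are thus the part of the list that met the limits in all comparisons on library totals. The 2 called higher under Dox were KLHL24 and CREBRF. On the TMM scale the Dox ratios of SESN2 and CTH were 1.89 and 1.80, below the limit of 2.

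The other genes of the stress and metabolism group were GFPT2 and SAT1, described above, ASS1, PGM2L1, and HSPA1A. PGM2L1, which makes glucose 1,6-bisphosphate, had ratios of 5.83 under Dox and 3.35, 8.28, and 13.4 at 4, 8, and 12 h, and ASS1 had 2.07, 2.01, 3.97, and 6.14. HSPA1A (ENSG00000204389, chr6:31815464-31817946), an inducible heat shock protein 70, was at 1.67, 1.74, and 2.95 CPM in shERG-DMSO, at 5.95, 6.42, and 6.89 in Dox, at 0.503, 0.700, and 1.15 in DMSO, at 2.49, 2.93, and 3.52 at 4 h, at 2.49, 2.92, and 3.09 at 8 h, and at 17.2, 19.4, and 23.1 CPM at 12 h. Its first 2 times overlapped and 12 h stood apart. HSPA1A shares most of its sequence with HSPA1B, so that its counts are uncertain.

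Autophagy and lysosome genes were represented by 4 members with median ratios of 3.19 under Dox and 2.92, 6.33, and 8.36 at the 3 times. MAP1LC3B, the lipid-anchored LC3B of autophagosomes, ranged from 8.92 to 9.20 CPM in shERG-DMSO, 22.8 to 24.9 in Dox, 7.74 to 9.71 in DMSO, 27.0 to 31.8 at 4 h, 65.1 to 70.9 after 8 h, and 97.4 to 124 CPM at 12 h. Its counts may include reads of the copy MAP1LC3B2. NEU1, the lysosomal sialidase, ranged from 15.0 to 19.6, 43.3 to 49.5, 13.7 to 17.1, 37.3 to 38.1, 70.0 to 72.9, and 136 to 141 CPM in the same order. OPTN, an autophagy receptor, had ratios of 5.39, 2.86, 7.41, and 8.02 under Dox and at 4, 8, and 12 h, and ZFYVE1, a phosphoinositide-binding protein of autophagosome formation sites, had 3.85, 2.98, 5.26, and 5.33. Of 39 tested genes in the autophagy and lysosome list, 4 were called higher under Dox (10.3%, against 12.0% of all genes) and 5, 11, and 15 at the 3 times (12.8%, 28.2%, and 38.5%, against 7.28%, 14.9%, and 17.1%), with 2, 3, and 3 called lower at the 3 times.

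Control of cell division was represented by CDKN1C, SERTAD1, and HBP1. SERTAD1, a partner of CDK4 and E2F complexes, ranged from 0.617 to 0.907 CPM in shERG-DMSO, 2.55 to 4.28 in Dox, 0.315 to 0.742 in DMSO, 14.3 to 17.5 at 4 h, 18.5 to 22.6 after 8 h, and 18.9 to 20.0 CPM at 12 h. HBP1, a repressor of cell cycle genes, had mean levels of 21.1 and 49.7 CPM in shERG-DMSO and Dox and of 21.5, 73.6, 93.4, and 91.4 CPM in DMSO and at the 3 times. In a list of growth arrest genes and CDK inhibitors, 4 of 27 tested genes were called higher under Dox (14.8%, against 12.0% of all genes) and 1 lower. At 4, 8, and 12 h, 11, 15, and 16 were called higher (40.7%, 55.6%, and 59.3%, against 7.28%, 14.9%, and 17.1%) and 1, 1, and 2 lower. CDKN1C was the member of that list among the 112 genes.

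Ubiquitin ligases and deubiquitinases made up 8 members, with median ratios of 2.19 under Dox and 4.14, 6.86, and 5.80 at the 3 times. Of these 8, 4 were called higher under Dox, against 12.0% of all genes tested, a count that the rule favours. On the TMM scale the Dox ratio was below 2 for FBXO32 (1.72), TNFAIP3 (1.75), FBXO48 (1.78), TRIM62 (1.80), and SPSB2 (1.94). TNFAIP3 (A20, ENSG00000118503), a ubiquitin-editing enzyme that restrains NF-kB, was at 1.17, 1.44, and 1.59 CPM in shERG-DMSO and 2.89, 3.25, and 3.91 in Dox. It was at 1.69, 2.10, and 3.40 CPM in DMSO, at 99.6, 108, and 129 at 4 h, at 91.8, 96.7, and 100 at 8 h, and at 80.0, 81.9, and 93.5 CPM at 12 h. The ratio was 2.03 under Dox and 39.0 at 4 h. Of 24 tested genes in the NF-kB and cytokine list, 20, 19, and 19 were called higher at the PBITE-1 times. The median log2 fold change of this list was 0.00 under Dox and 2.51, 3.07, and 2.69 at the 3 times. OTUD1, a deubiquitinase, had ratios of 2.55, 5.37, 7.60, and 5.74 in the order Dox, 4, 8, and 12 h. FBXO32 (atrogin-1), the F-box protein of muscle wasting, had 2.04, 2.68, 3.48, and 2.67, and PELI1, a ligase of Toll-like receptor signalling, had 2.76, 4.31, 6.11, and 4.08. The remaining ligases were FBXO48, TRIM62, MARCHF3, and SPSB2.

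Receptors and intracellular signalling held 10 members with median ratios of 2.87, 3.13, 5.06, and 5.17. RET, the receptor tyrosine kinase of GDNF ligands, had mean levels of 0.886 CPM in shERG-DMSO, 4.42 in Dox, 1.07 in DMSO, and 4.30, 9.46, and 9.29 CPM at 4, 8, and 12 h. PEAK1, a pseudokinase scaffold, had ratios of 2.88, 3.20, 11.6, and 13.3 in the order Dox, 4, 8, and 12 h. GAB1, an adaptor of receptor tyrosine kinases, had 2.41, 2.25, 4.07, and 4.75. Feedback inhibitors of MAP kinases were DUSP8 and DUSP10, phosphatases that act on JNK and p38. DUSP10 ranged from 0.681 to 0.926 CPM in shERG-DMSO, 3.40 to 3.57 in Dox, 0.755 to 1.11 in DMSO, 26.1 to 31.5 at 4 h, 18.99 to 23.2 after 8 h, and 16.3 to 17.2 CPM at 12 h, and was among the 6 members that were highest at 4 h. DUSP8 had ratios of 2.87, 2.01, 2.91, and 3.37. In the list of MAPK phosphatases and Sprouty genes, 2 of 18 tested genes were called higher (11.1%, against 12.0% of all genes) and 3 lower under Dox, and 10, 8, and 8 were called higher and 3, 3, and 2 lower at 4, 8, and 12 h.

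Guidance and Wnt genes were UNC5B, SEMA6C, SRGAP1, WNT4, and NKD1, with median ratios of 4.09, 3.37, 6.74, and 6.76. WNT4, a Wnt ligand, ranged from 0.0756 to 0.309 CPM in shERG-DMSO, 2.77 to 3.31 in Dox, 0.270 to 0.692 in DMSO, 2.27 to 3.52 at 4 h, 5.83 to 6.52 after 8 h, and 4.20 to 6.06 CPM at 12 h. NKD1, which binds Dishevelled and dampens Wnt signalling, ranged from 3.02 to 3.25, 6.98 to 7.82, 2.92 to 3.98, 19.7 to 21.8, 38.4 to 42.3, and 15.3 to 20.0 CPM in the same order. Of 24 tested genes in the Wnt list, 5 were called higher under Dox (20.8%, against 12.0% of all genes) and 6, 12, and 9 at the 3 times, with 2, 2, 4, and 2 called lower.

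Transcription factors and corepressors numbered 10, with median ratios of 2.89 under Dox and 2.47, 5.24, and 3.84 at the 3 times. MAFF, a small MAF factor that pairs with NRF2 and other leucine zipper proteins, ranged from 1.42 to 2.19 CPM in shERG-DMSO, 4.51 to 6.29 in Dox, 1.76 to 2.16 in DMSO, 3.30 to 6.39 at 4 h, 5.22 to 6.46 after 8 h, and 5.61 to 6.33 CPM at 12 h. It was the only member from the list of AP-1 and immediate early genes, of which 20 of 23 tested were called higher at each PBITE-1 time and 1 under Dox. RORA, a nuclear receptor of the circadian clock, had mean levels of 16.0 and 38.2 CPM in shERG-DMSO and Dox and of 13.5, 33.8, 45.4, and 53.5 CPM in DMSO and at the 3 times. PKNOX2, a TALE homeobox factor, ranged from 0.549 to 1.36 CPM in shERG-DMSO, 6.38 to 7.53 in Dox, 1.01 to 2.04 in DMSO, 3.74 to 3.96 at 4 h, 10.7 to 11.4 after 8 h, and 2.16 to 4.53 CPM at 12 h.

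NR1H4 (ENSG00000012504), which encodes the bile acid receptor FXR, rested on few reads in its controls. It had 2, 1, and 2 counts in the DMSO samples, and was at 0.302, 0.481, and 0.864 CPM in shERG-DMSO, at 3.73, 4.17, and 5.18 in Dox, at 0.587, 0.819, and 1.32 at 4 h, at 2.28, 2.29, and 2.39 at 8 h, and at 2.92, 3.67, and 7.77 CPM at 12 h. Without the added 0.5 CPM, its summed counts gave ratios to DMSO of 8.73, 22.1, and 46.7 at 4, 8, and 12 h. The exact 95% intervals, which cover counting error only, were 3.41 to 28.5 for the first, 9.18 to 69.6 for the next, and 19.7 to 145 for the last. They leave out the spread between samples, which at 12 h ran from 2.92 to 7.77 CPM. The rule chose the gene on these same samples, and low DMSO counts helped it in, so the intervals are a description and no test.

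Cytoskeleton and adhesion genes (7 members) had median ratios of 3.37, 3.85, 8.44, and 9.15, and included CYRIA, LASP1, FRMD6, SEPTIN4, MAP1A, and TPPP. LASP1, an actin-binding LIM protein, had a Dox ratio of 6.83 and ratios of 2.89, 6.10, and 5.86 with PBITE-1. MAP1A, a microtubule-associated protein of neurons, ranged from 1.36 to 1.73 CPM in shERG-DMSO, 2.89 to 4.28 in Dox, 1.51 to 2.80 in DMSO, 9.83 to 11.9 at 4 h, 26.7 to 30.4 after 8 h, and 24.0 to 28.9 CPM at 12 h. Genes of neuronal membranes and synaptic vesicles (8 members) had median ratios of 3.71 under Dox and 2.45, 4.31, and 4.77 with PBITE-1. NPTX1, a secreted pentraxin of synapses, ranged from 0.605 to 1.37 CPM in shERG-DMSO and 8.00 to 8.84 in Dox, and from 1.87 to 1.89 in DMSO, 5.08 to 6.75 at 4 h, 4.69 to 5.31 after 8 h, and 5.75 to 6.88 CPM at 12 h. Its receptor NPTXR had ratios of 2.02, 2.05, 3.79, and 4.32. The others were SNPH, AMPH, DNAJC6, ATP1B2, KCNN3, and INSYN1. None of these 8 is in the list of neuronal and secretory vesicle genes, which held 0 of the 112. Of its 29 tested genes, 5 were called higher (17.2%, against 12.0% of all genes) and 1 lower under Dox. At 4, 8, and 12 h, 2, 6, and 7 were called higher (6.90%, 20.7%, and 24.1%, against 7.28%, 14.9%, and 17.1%) and 0, 2, and 6 lower. The sum of 6 neuroendocrine markers was 95.8 to 98.2 CPM in shERG-DMSO, 154 to 164 in Dox, 86.1 to 95.2 in DMSO, and 99.3 to 102, 102 to 105, and 91.0 to 98.5 CPM at the 3 times, mostly from CHGA and SYP, with NEUROD1 at 0 or 1 count in every sample. Its part in these levels was not tested.

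The histone genes H2BC4 and H2AC6 share a promoter region and differed with time. H2BC4 was at 1.97, 2.40, and 3.48 CPM in shERG-DMSO, at 7.66, 8.33, and 8.80 in Dox, at 4.92, 5.73, and 7.001 in DMSO, at 77.7, 81.4, and 89.3 at 4 h, at 80.6, 82.3, and 82.3 at 8 h, and at 25.6, 26.3, and 30.7 CPM at 12 h. H2AC6 was at 10.6, 10.8, and 14.6 CPM in shERG-DMSO, at 22.9, 25.3, and 27.3 in Dox, at 30.0, 30.2, and 32.3 in DMSO, at 147, 153, and 157 at 4 h, at 140, 147, and 149 at 8 h, and at 131, 133, and 134 CPM at 12 h. At 12 h H2BC4 was thus below its 4 and 8 h samples by a wide gap, and H2AC6 by a narrow one. The H2AC6 samples under Dox lay below those of parental cells in DMSO. Of 20 tested genes in the histone list, 14, 15, and 15 were called higher at the 3 times and 1 higher and 2 lower under Dox. Histone genes are near-identical in sequence, so their counts are uncertain.

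Of the 3 glycan synthesis genes, GLCE, which epimerizes heparan sulfate, had ratios of 2.45, 4.08, 8.25, and 8.18, CHST2, a sulfotransferase, had 3.62, 2.32, 5.19, and 7.24, and B3GNT2, which builds polylactosamine, had 2.38, 3.75, 4.44, and 2.90. The 43 members without a role group had median ratios of 2.65 under Dox and 2.60, 4.84, and 4.51 with PBITE-1. ULBP1, a ligand of the NK cell receptor NKG2D, had ratios of 2.37, 12.2, 27.0, and 27.6. IQCN (ENSG00000130518), an IQ motif protein, was at 1.65, 2.72, and 2.80 CPM in shERG-DMSO, at 7.49, 8.50, and 9.04 in Dox, at 4.91, 5.40, and 5.60 in DMSO, at 216, 230, and 252 at 4 h, at 234, 235, and 244 at 8 h, and at 36.8, 42.5, and 53.9 CPM at 12 h. Other members without a role group were PADI2, a peptidylarginine deiminase, with ratios of 5.60, 2.83, 7.44, and 8.61, LARP6, which binds collagen mRNA, with 3.05, 2.21, 6.05, and 9.74, YPEL1, a Yippee family protein, with 2.35, 2.70, 4.70, and 7.52, and ACER2, an alkaline ceramidase, with 2.84, 2.99, 3.56, and 2.23. Besides SLFN5, described above, the rest were ABHD6, ADAMTS15, AHDC1, APLF, ARMH4, C1orf226, CCDC126, CCDC28A, EFR3B, FAM161B, HELZ2, KCTD21, KRCC1, LCA5, NATD1, NEXMIF, NXN, OCEL1, PGPEP1, POLN, PRX, RAB43, RHBDL3, RTL5, SLC45A4, SOWAHC, STOX1, SUSD6, TDRD6, TENT5A, TLL2, TMEM86A, TTBK2, VSTM4, and WDR47. ZCCHC24, a zinc finger protein and the member from the list of P-TEFb and BET response genes, had ratios of 3.02, 6.01, 8.92, and 6.70.

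**Figure D3:**
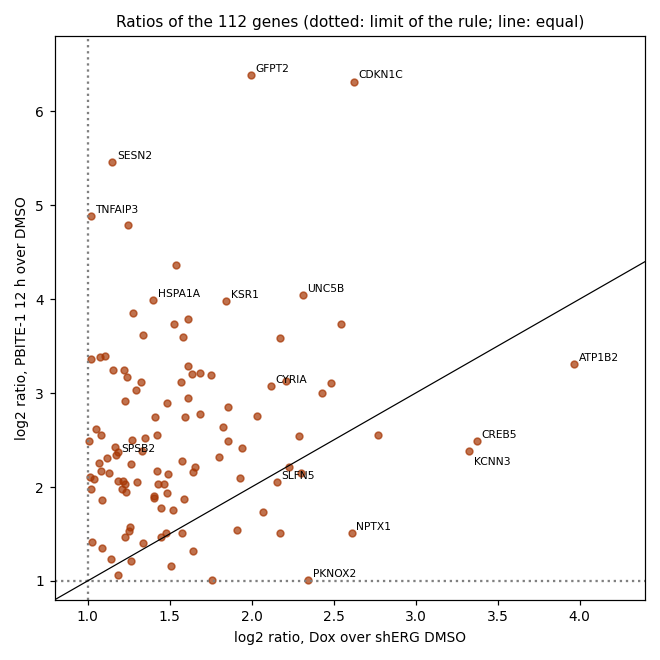
The horizontal axis gives the log2 ratio of Dox over shERG-DMSO and the vertical axis that of PBITE-1 at 12 h over DMSO for the 112 genes, with dotted lines at the limit of the rule and a solid line at equal ratios. Of the 112 genes, 94 lie above the line, GFPT2 and CDKN1C the highest, while ATP1B2, CREB5, KCNN3, NPTX1, and PKNOX2 lie below it.

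The times of PBITE-1 were set against each other in the fit of parental cells, since the rule set each time against DMSO and not against another time. The same samples entered the rule, however, which asked for at least 3 CPM at 12 h and at no other PBITE-1 time. That floor favours genes still raised at 12 h over genes that had fallen by then. The counts and differences of members are therefore no more than a description, read beside the share of all genes. No p is given for a single gene. From 4 to 8 h, 48 of 112 genes were called higher, against 4.43% of all genes tested, and 0 lower, against 2.22%. Beside that 0, limma-voom gave 2 lower members at an unadjusted p under 0.05, and edgeR and DESeq2 called 0. From 8 to 12 h, 4 genes were called higher (3.57% of the 112, against 3.48% of all genes) and 6 lower (5.36%, against 6.59%), shares close to those of all genes. From 4 to 12 h, 46 were called higher (9.08% of all genes) and 2 lower (11.0%). The median log2 difference of the 112 genes was 0.89 from 4 to 8 h, -0.08 from 8 to 12 h, and 0.83 from 4 to 12 h, against 0.00, -0.04, and 0.00 over all genes tested. By mean CPM, 6 genes were highest at 4 h, 57 at 8 h, and 49 at 12 h.

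CDKN1C was the member called higher at each step. Its log2 difference was 1.46 (SE 0.19) from 4 to 8 h and 2.08 (SE 0.11) from 8 to 12 h. From 4 to 8 h and back from 8 to 12 h, 4 members were called higher and then lower, namely CREB5, KCNN3, NKD1, and PKNOX2. From 8 to 12 h the log2 difference was -1.81 (SE 0.19) for PKNOX2 and -1.28 (SE 0.09) for NKD1. A further 34 members were called higher from 4 to 8 h and from 4 to 12 h but not from 8 to 12 h. MAP1LC3B, with 1.22 (SE 0.09) and then 0.71 (SE 0.07), was of this kind. HSPA1A, AMPH, a protein of vesicle endocytosis, and SPSB2 were called higher from 8 to 12 h alone of the 2 steps.

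From 4 to 12 h, the called members with the most positive log2 difference were CDKN1C (3.54, SE 0.17), HSPA1A (2.73, SE 0.20), ARMH4 (2.42, SE 0.16), and NR1H4 (2.31, SE 0.40). ARMH4, a membrane protein, was at 1.07, 1.28, and 1.75 CPM in DMSO, at 4.25, 4.42, and 6.23 at 4 h, at 12.6, 14.3, and 16.9 at 8 h, and at 25.9, 26.8, and 27.0 CPM at 12 h. The 2 called lower were IQCN (-2.40, SE 0.07) and H2BC4 (-1.60, SE 0.07), and each was flat from 4 to 8 h, at 0.05 (SE 0.05) and 0.00 (SE 0.06). For H2AC6 the log2 difference from 4 to 12 h was -0.20 (SE 0.04), not past the threshold of 1. A total of 51 members had no call between any 2 times, among them SESN2, DUSP10, SLFN5, and IRS2.

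**Figure D4:**
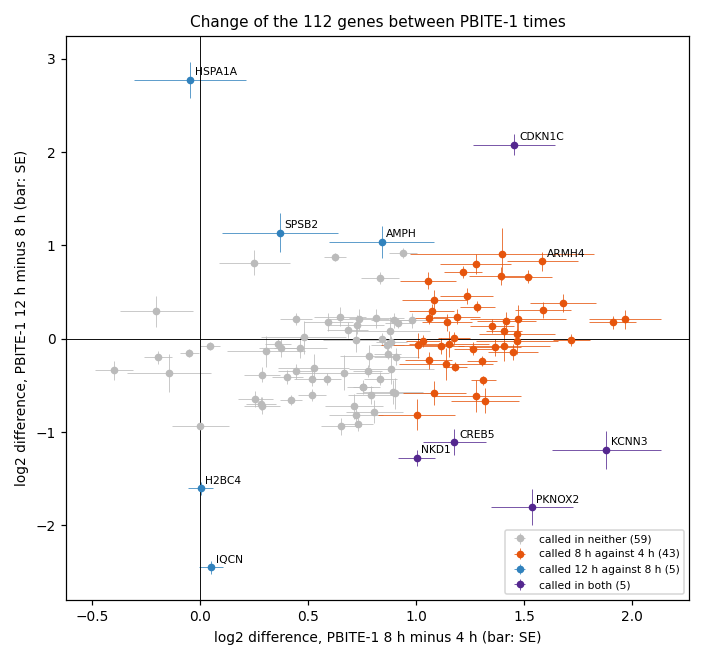
Each point is 1 of the 112 genes, with the log2 difference from 4 to 8 h of PBITE-1 on the horizontal axis, that from 8 to 12 h on the vertical axis, and bars of 1 SE. The 48 genes called higher in the first step lie at the right, CDKN1C at the top right, PKNOX2 and KCNN3 at the lower right, HSPA1A at the top left, and IQCN and H2BC4 at the bottom left.

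The sizes of the responses to Dox and to 12 h of PBITE-1 were compared gene by gene in a fit of all 18 samples. The rule chose the members on the same Dox, 12 h, and control samples, so these counts and differences are a description, set beside the share of all genes, and no p is given. The response to Dox was called smaller in 64 of 112 genes, against 13.0% of all genes tested, and larger in 2, against 15.9%. The median difference of the 112 genes was -1.23 on the log2 scale, against 0.02 over all genes tested (0.28 with library size as the only scaling). The most negative differences were those of SESN2 (-4.72, SE 0.36), GFPT2 (-4.70, SE 0.33), CDKN1C (-4.50, SE 0.77), and TNFAIP3 (-4.19, SE 0.45). The 2 genes called larger under Dox were PKNOX2 (1.43, SE 0.45) and NPTX1 (1.16, SE 0.36). The ratio of PKNOX2 was 5.08 under Dox, 6.02 at 8 h, and 2.02 at 12 h. Without the first shERG-DMSO sample the NPTX1 difference was 0.91 and no longer called. For ATP1B2 the difference was 0.75 (SE 0.72), for CREB5 1.13 (SE 0.54), and for SLFN5 -0.14 (SE 0.11), none of them called.

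By role group, the response to Dox was called smaller in 8 of 9 stress and metabolism genes, 6 of 8 ubiquitin genes, 6 of 10 signalling genes, 5 of 7 cytoskeleton genes, and 3 of 3 cell division genes, against the 13.0% of all genes tested. It was called smaller in 3 of 5 guidance and Wnt genes, 2 of 3 glycan genes, 2 of 4 autophagy and lysosome genes, 1 of 2 histone genes, 3 of 10 transcription factors, 3 of 8 genes of neuronal membranes, and 22 of 43 genes without a role group. The groups were made after the members were known, and the difference between their shares was not tested. CREBRF was the stress gene without a call, at -0.55 (SE 0.16).

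**Figure D5:**
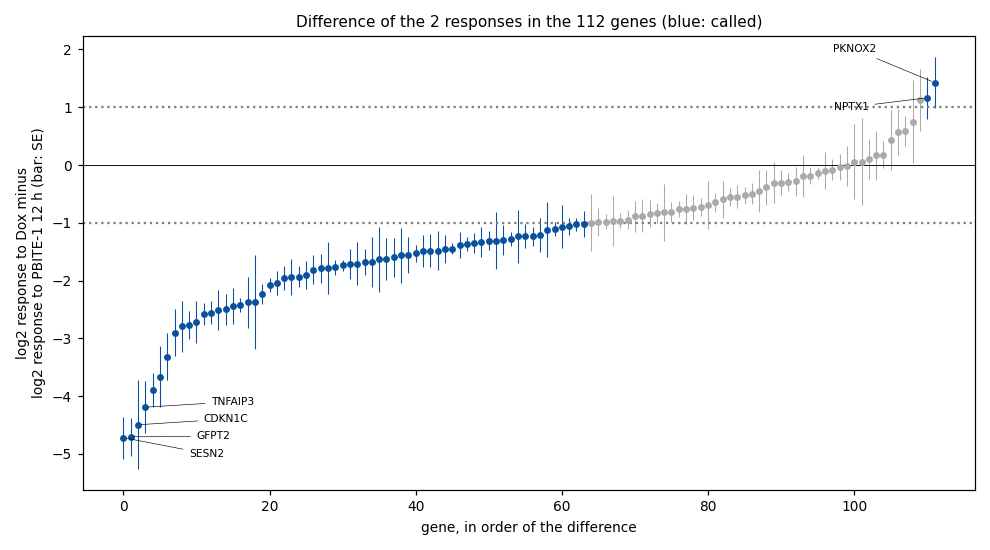
The 112 genes are ordered along the horizontal axis, and the vertical axis gives the log2 response to Dox minus the log2 response to PBITE-1 at 12 h with a bar of 1 SE. Blue points are the 64 genes called negative, from SESN2 at -4.72, and the 2 called positive, NPTX1 and PKNOX2, with dotted lines at -1 and 1.

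The 2 control groups were compared because each ratio rests on one of them. Low control values helped a gene to meet the rule, so the members were chosen in part on these samples, and the values are a description with no p. In shERG-DMSO against DMSO, 7 of 112 genes were called higher, against 1.19% of all genes tested, and 6 lower, against 5.0%. The 7 higher were NR1H4, HSPA1A, KSR1, ZFHX2, FBXO48, GAB1, and ABHD6, and the 6 lower were RAB43, H2AC6, NEXMIF, H2BC4, IQCN, and RGL1. The log2 difference was 1.44 (SE 0.38) for HSPA1A, 1.34 (SE 0.38) for KSR1, and 1.33 (SE 0.26) for ZFHX2, a zinc finger homeobox factor. For NR1H4 it was 2.07 (SE 0.78) on 25 against 5 counts in all, and leaving out the second shERG-DMSO sample or any of the 3 DMSO samples ended the call, with values of 1.68 to 2.24. It was -1.42 (SE 0.26) for RAB43, a RAB GTPase, -1.38 (SE 0.10) for H2AC6, -1.26 (SE 0.28) for NEXMIF, a nuclear protein of neurons, and -1.22 (SE 0.23) for H2BC4. ZFHX2 was at 4.60, 5.12, and 5.60 CPM in shERG-DMSO and at 1.28, 2.33, and 2.58 in DMSO, and RAB43 at 1.21, 1.73, and 2.20 against 3.44, 4.55, and 5.98 CPM. For these 13 genes the ratios of Dox and of PBITE-1 start from different levels. Line and handling of the cells cannot be told apart in this comparison.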

How the data were processed

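RNA-seq (rRNA-depleted total RNA, paired-end) was analysed in 18 VCaP samples, 3 in each of 6 groups. The table that the authors deposited holds whole-number counts for each gene, not normalized. The study's methods name Kallisto with edgeR and limma, the submitters' processing notes name STAR and featureCounts, and which of them made the table, with which annotation and strand setting, is not given in the sources used here. Of the 22034 genes, 22011 were matched to a symbol and 21921 to a GENCODE 29 model.

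CPM in the text are on library totals. Counts were scaled by TMM in edgeR 4.0.16, filtered by filterByExpr over the 6 groups (14164 genes), and fitted with limma-voom (limma 3.58.1, R 4.3.3), with Benjamini-Hochberg adjustment over all genes tested. Separate fits were made for the shERG line (6 samples) and for parental cells (12 samples), and one fit of all 18 served for the controls and the difference of responses. A call required an adjusted p under 0.05 together with a log2 fold change above 1 in size. On simulated counts the procedure was tested for recovery of known changes. The other settings tried were the quasi-likelihood test of edgeR, DESeq2 1.42.0, RLE, library size only, other filters, other fits, a replicate block, other limits of the rule, and leaving out each sample. No replicate was a copy of another (chi-square per degree of freedom 1.70 to 4.96 within groups). Totals limit precision at low levels, where 3 counts were taken as the floor.

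The members, lists, and tests were chosen with earlier results of these data known. The genes named are the 10 members with the highest minimum ratio, the 5 with the highest mean CPM at 12 h, members of 31 pathway lists (21 members in all), the 4 called members with the most positive and the most negative difference in each of 3 comparisons, and the 3 genes on each side of the threshold. A few genes that this rule names are not reported here. Role groups, and any other member named, were chosen after the values were seen.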

Additional observations from a re-analysis of the deposited data

Results flagged for a closer look

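The log2 differences between times of PBITE-1 are listed because the times were set against each other in the same fit. The samples of all 3 times entered the choice of the 112 genes, with a CPM floor at 12 h alone of these times. The counts are therefore a description beside the share of all genes tested. From 4 to 8 h, 48 were called higher (4.43% of all genes) and 0 lower (2.22%), with 2 lower at an unadjusted p under 0.05 in limma-voom and 0 called by edgeR and DESeq2. From 8 to 12 h, 4 were called higher (3.57% of the 112, against 3.48% of all genes) and 6 lower (5.36%, against 6.59%), both close to the share of all genes. From 4 to 12 h, 46 were called higher (9.08% of all genes) and 2 lower (11.0%). The named genes of the last comparison were IQCN (-2.40 on the log2 scale) and H2BC4 (-1.60), which fell, and CDKN1C (3.54), HSPA1A (2.73), ARMH4 (2.42), and NR1H4 (2.31), which rose.

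The log2 response to Dox was also set against that to 12 h of PBITE-1, over all 18 samples. The values of both entered the choice of the 112 genes, so this too is a description. Of the 112 genes, 2 had a response called larger under Dox (15.9% of all genes), PKNOX2 (1.43) and NPTX1 (1.16), and 64 one called smaller (13.0%). The most negative differences were those of SESN2 (-4.72), GFPT2 (-4.70), CDKN1C (-4.50), and TNFAIP3 (-4.19). Line, agent, and time of treatment cannot be told apart in this difference.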

How the results depend on the processing

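The rule gave 112 genes. With a ratio of 1.5 it gave 433, with a ratio of 3 it gave 19, with a CPM floor of 10 it gave 53, and with the lowest treated sample set against the highest control sample it gave 49. On TMM it gave 85. With 1 sample left out it gave 107 to 116.

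Without the limit on the fold change, 99 members were higher and 2 lower from 4 to 8 h, 29 and 41 from 8 to 12 h, 79 and 14 from 4 to 12 h, and 16 and 20 in the comparison of controls. With at least 10 counts in every sample, which tested 11807 genes, 1 member was higher and 3 lower from 8 to 12 h, 4 were higher in shERG-DMSO than in DMSO, and 0 had a larger response to Dox. Members with fewer than 10 counts in any sample were not tested under that filter, among them PKNOX2, NPTX1, CDKN1C, KCNN3, and NR1H4. The 0 therefore does not mean that the calls of PKNOX2 and NPTX1 failed, and these counts are not directly comparable with those of all 112 genes. When 1 sample was left out, members called higher numbered 85 to 95 under Dox, 109 to 112 at 4 h, 112 at 8 h, and 111 to 112 at 12 h. The ranges were 44 to 48 higher and 0 lower from 4 to 8 h, 4 to 5 and 5 to 7 from 8 to 12 h, and 44 to 47 and 2 to 3 from 4 to 12 h. They were 4 to 8 higher and 5 to 8 lower between controls, with 4 without DMSO replicate 3, and 1 to 3 larger and 61 to 67 smaller for the difference of responses, with 1 without shERG-DMSO replicate 1.

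Of 1055 alternatives for 72 results of named genes, 1049 kept direction and call and 0 reversed. The call was lost for NR1H4 between controls without shERG-DMSO replicate 2 (1.68) or DMSO replicate 1 (2.24), 2 (1.83), or 3 (2.15), and for NPTX1 (0.91) without shERG-DMSO replicate 1. IRS2 was called under Dox on library size only (1.02). The cause of these changes was not tested.

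Replicate numbers did not pair the samples, as the correlation of same-numbered deviations was between -0.0232 and 0.0414. With the replicate number as a block, 91 members were higher under Dox, 112 at each PBITE-1 time, 47 and 0 from 4 to 8 h, 4 and 6 from 8 to 12 h, 46 and 2 from 4 to 12 h, 7 and 8 between controls, and 3 and 66 for the difference of responses. Depth limits genes with few control counts, such as NR1H4 with 5 in the DMSO samples together.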
